A study of Mus musculus with 4 samples.

Results

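The genes followed here encode 10 nuclear regulators of the AP-1 and immediate early response: the FOS family (Fos, Fosb, Fosl1 and Fosl2), the JUN family (Jun, Junb and Jund), Atf3, Egr1 and Ier2. They were taken by symbol from the 54532 gene IDs of the deposited count table, and all 10 are also in the TPM table. The tissue is cranial neural tube, microdissected from mouse embryos at embryonic day 10.5, in 4 libraries from separate embryos. The 2 DCKO embryos carried Lats1 flox/flox, Lats2 flox/flox and E2f1 Tg(Wnt1-cre)2Sor/+, a transgene in which Wnt1 regulatory sequences drive Cre recombinase in dorsal neural tube cells and the neural crest they give rise to. The 2 Control embryos had no such transgene, and the labels do not say whether they carried floxed alleles. Only a part of the dissected tissue expresses Cre, so a DCKO library mixes recombined and other cells, and an effect of the transgene itself cannot be told apart from loss of Lats1 and Lats2.

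AP-1 is a dimer of basic leucine zipper (bZIP) proteins. A FOS protein mostly pairs with a JUN protein, while JUN proteins also pair with each other and with ATF proteins. Immediate early genes are transcribed within minutes of growth factor, mechanical or stress signals, through MAP kinases that act on SRF, its ELK partners and JUN. LATS kinases restrain the coactivators YAP and TAZ, whose TEAD partners are known to share many enhancers with AP-1.

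Promoter sequence is shown for Fos, Atf3 and Fosl2, which rose together in the counts given further on, and for Jun, whose difference was far smaller. RefSeq promoters of 300 bases on GRCm38.p6, from 250 bases before the start site to 50 after it, were found for 7 of the genes (not Fosl1, Egr1 or Ier2). The AP-1 site TGACTCA, the CRE site TGACGTCA, the SRF-bound CArG box and the TEAD site GGAATG, searched on both strands, had 0 matches in these 7 windows. Of all 32851 promoters of this length, 5.20%, 1.79%, 1.63% and 14.7% hold them. Sequence farther from the start site was not searched, so 0 matches does not mean that a gene lacks such a site. After that result was seen, TGACGT (the core of the CRE site, which it overlaps), TGACATCA (an AP-1-like element known from the Jun promoter) and GCGGGGGCG (a site of EGR proteins) were searched as well, and 7.51%, 3.62% and 2.91% of all promoters hold these. Capitals mark the match in each sequence, printed 5′ to 3′ on the strand of the gene: the CRE core in Fos (chr12:85473640-85473939, plus strand) and in Atf3 (chr1:191183284-191183583, minus strand), the EGR site in Fosl2 (chr5:32136222-32136521, plus strand) and the AP-1-like element in Jun (chr4:95052173-95052472, minus strand).
Fos: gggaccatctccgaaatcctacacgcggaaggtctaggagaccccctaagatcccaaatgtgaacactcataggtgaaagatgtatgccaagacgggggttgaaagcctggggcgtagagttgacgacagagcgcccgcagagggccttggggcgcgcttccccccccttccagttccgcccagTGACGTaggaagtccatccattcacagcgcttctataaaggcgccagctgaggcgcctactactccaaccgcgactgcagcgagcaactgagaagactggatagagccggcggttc
Atf3: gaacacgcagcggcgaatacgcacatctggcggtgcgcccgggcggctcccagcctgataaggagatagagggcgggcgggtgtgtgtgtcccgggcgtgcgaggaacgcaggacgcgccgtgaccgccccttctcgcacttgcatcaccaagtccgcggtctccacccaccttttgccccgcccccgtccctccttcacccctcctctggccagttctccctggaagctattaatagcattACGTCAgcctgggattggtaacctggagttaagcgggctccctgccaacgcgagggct
Fosl2: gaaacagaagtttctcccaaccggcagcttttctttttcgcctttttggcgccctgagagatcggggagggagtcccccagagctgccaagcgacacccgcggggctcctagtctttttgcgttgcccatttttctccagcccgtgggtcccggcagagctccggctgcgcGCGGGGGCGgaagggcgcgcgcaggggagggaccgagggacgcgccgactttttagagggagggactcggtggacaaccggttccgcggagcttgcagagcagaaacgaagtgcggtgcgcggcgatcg
Jun: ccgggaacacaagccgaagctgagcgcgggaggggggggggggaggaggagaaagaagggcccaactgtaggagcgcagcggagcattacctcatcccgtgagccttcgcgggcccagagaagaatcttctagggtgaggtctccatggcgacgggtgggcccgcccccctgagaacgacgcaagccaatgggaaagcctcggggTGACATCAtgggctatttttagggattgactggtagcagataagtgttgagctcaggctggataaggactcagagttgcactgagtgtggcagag
Counted from the start site, the matches lie at -66 to -61 in Fos, at -8 to -3 in Atf3, where the core reads on the opposite strand, at -79 to -71 in Fosl2 and at -45 to -38 in Jun. The Fosb window also holds the EGR site, and those of Junb and Jund hold none of the 7 motifs. These RefSeq starts lie inside the annotated GENCODE gene for Atf3 and Fosl2. The Jund window ends before the annotated GENCODE gene begins, so it does not cover the start of the gene described below. A match describes letters in this window and is not a measured binding site.

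Libraries held 41798361 to 55137810 counts. Levels are in CPM, counts scaled to library totals with trimmed mean of M values (TMM) factors. Lats1 was at 44.2 and 65.6 CPM in the Control libraries and 30.0 and 29.7 in the DCKO libraries (adjusted p 0.0538), and for Lats2 the groups overlapped, at 26.7 and 13.3 against 21.2 and 35.3 CPM. Counts of a gene include exons outside its floxed part, so they do not check the genotype. Counts of Xist, which is transcribed from an inactive X chromosome, were 10837 and 7786 for Control against 8 and 22 for DCKO, so embryo sex cannot be told apart from genotype in any result below. The ribosomal RNA cluster on chromosome 17 took 12.4% to 13.2% of counts in Control and 24.7% to 30.3% in DCKO.

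In DCKO neural tubes Fos, Fosl2, Atf3 and Egr1 were many times higher than in Control, and Jund was lower. Fosb, Fosl1, Jun, Junb and Ier2 did not pass the test. Rose, fell and called are used where the adjusted p of edgeR's quasi-likelihood test, over all 19207 tested genes, was under 0.05. All 10 genes were tested, but Fos and Fosb passed the filter on low counts only through the DCKO libraries. Of the 10, 4 rose, where 8.93% of all tested genes were called higher, and 1 fell, where 8.11% were called lower. Both DCKO libraries lay above both Control libraries for 8 genes, as for 33.6% of all tested genes, and below them for 2, as for 32.9%. The median log2 fold change was 1.64 over the 10 genes, with Fos (6.02) and Fosb (2.37) among them, and 0.03 over all tested genes. Because Fos and Fosb were tested only through the group where they are high, the count and the median are a description. In bulk tissue, a change in the number of cells of a type and a change in RNA per cell cannot be told apart.

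**Figure D1:**
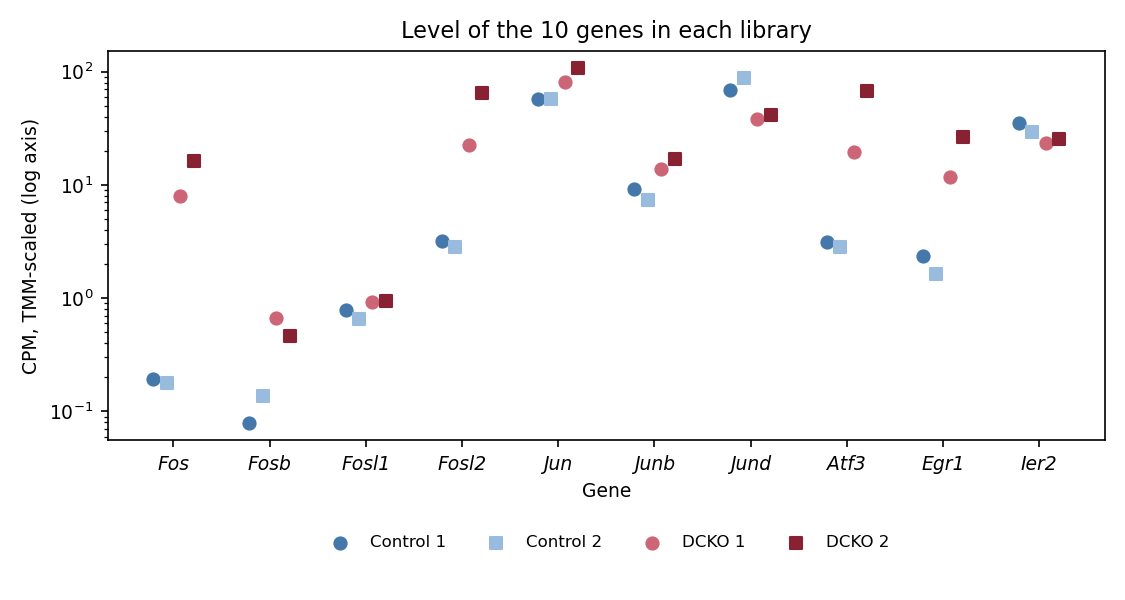
Level of each of the 10 genes in CPM (log axis), 1 point per library, with Control in blue and DCKO in red. Fos, Fosl2, Atf3 and Egr1 lie far higher in DCKO, Jund and Ier2 lie lower, and the groups do not overlap for any gene.

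Of the FOS family, Fos and Fosl2 rose while Fosb and Fosl1 stayed scarce. Fos (ENSMUSG00000021250, chr12:85473890-85477273, plus strand), on GRCm38 like all gene positions here, is the prototype immediate early gene. Its Control libraries held 0.192 and 0.178 CPM and its DCKO libraries 8.02 and 16.3, from 12, 9, 321 and 602 counts in the order Control 1, Control 2, DCKO 1, DCKO 2. Fos was thus barely detected in either Control embryo and clearly present in both DCKO embryos. The mean went from 0.185 ± 0.00974 to 12.2 ± 5.85 CPM (SD, n = 2), a ratio of 65.8. In TPM the ratio was 38.2. With 12 and 9 Control counts, the Control SD leaves out most of the counting error and the size of the ratio is uncertain. In the edgeR fit the log2 change was 6.02, with an SE of 0.51 and an adjusted p of 0.00734, and 108 tested genes had a higher one.

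Fosl2 (ENSMUSG00000029135, chr5:32135801-32157842, plus strand) encodes FRA2, a FOS protein that lacks the strong transactivation domain of FOS. Its Control libraries held 3.21 and 2.81 CPM and its DCKO libraries 22.4 and 65.2. The groups were far apart, and DCKO 2 was at 2.91 times the level of DCKO 1. Means were 3.01 ± 0.285 and 43.8 ± 30.2 CPM (SD, n = 2), a ratio of 14.6, and the log2 change was 3.86 (SE 0.55, adjusted p 0.0153).

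Fosb (ENSMUSG00000003545, chr7:19302696-19310051, minus strand), a close relative of Fos, had 5, 7, 27 and 17 counts in the same library order. These are 0.0798 and 0.138 CPM for Control against 0.675 and 0.460 for DCKO, both DCKO libraries being higher. Its log2 change of 2.37 (SE 0.66) had an adjusted p of 0.0634. Fosl1 (ENSMUSG00000024912, chr19:5447547-5455946, plus strand) encodes FRA1, another FOS protein without the FOS transactivation domain. It stood at 0.783 and 0.652 CPM in the Control libraries and 0.925 and 0.947 in the DCKO libraries, a log2 change of 0.38 (SE 0.45, adjusted p 0.581). Fosl1 overlaps Ccdc85b on the other strand by 2767 bases, so the assignment of its 49, 33, 37 and 35 counts is uncertain.

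JUN family genes, which supply the main partners of FOS proteins, differed by less and in both directions. Jund (ENSMUSG00000071076, chr8:70698949-70700616, plus strand), the JUN gene expressed without stimulation in most cells, fell. Its Control libraries held 69.1 and 87.4 CPM, its DCKO libraries 38.1 and 41.7, with means of 78.2 ± 13.0 and 39.9 ± 2.59 CPM (SD, n = 2). The log2 change was -0.97 (SE 0.19, adjusted p 0.0275), and the groups did not overlap. The antisense model Gm11175 lies inside Jund over 919 bases and had nearly as many counts, 3935, 3855, 1762 and 1425, with a log2 change of -0.75 (adjusted p 0.0454). The labels name a stranded kit but the sources used here do not say whether counting used strand, so reads of Jund and Gm11175 cannot be told apart.

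Jun (ENSMUSG00000052684, chr4:95049034-95052222, minus strand), the immediate early JUN gene and a substrate of the JNK kinases, was at 56.9 and 57.3 CPM without and 81.6 and 107 CPM with the transgene. In CPM the Control libraries were almost equal and both DCKO libraries higher, and the log2 change was 0.72 (SE 0.19, adjusted p 0.0550). Before scaling its counts overlapped, at 3562 and 2901 for Control against 3265 and 3947 for DCKO. In TPM they were 33.4 and 27.5 against 33.7 and 52.1, so Control 1 and DCKO 1 were nearly equal. The antisense gene Junos overlaps Jun by 689 bases. It had far fewer counts than Jun, 193 and 164 for Control against 226 and 268 for DCKO. Junb (ENSMUSG00000052837, chr8:84974484-84978718, minus strand) encodes a JUN protein that can oppose JUN. It had 577 and 370 counts in the Control libraries against 557 and 628 in the DCKO libraries, which overlap before scaling. In CPM both DCKO libraries were higher, with means of 8.26 ± 1.35 and 15.5 ± 2.17 (SD, n = 2) and a log2 change of 0.90 (SE 0.24, adjusted p 0.0566). Both genes missed the threshold here and passed it in DESeq2, with adjusted p-values of 0.0231 for Jun and 0.0230 for Junb, and with upper quartile scaling (0.0470 and 0.0483). Scaling to library totals, which shifted all genes by a median of -0.35 (log2), brought Jun to 0.37 and Junb to 0.55. Their adjusted p-values in edgeR were then 0.196 and 0.148. Of the 11 alternatives that kept all libraries, Jun passed in 3 and Junb in 2.

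For Junb the deposited counts and TPM, a unit scaled by transcript length, pointed opposite ways. Its TPM were 28.6 and 17.2 for Control against 12.0 and 24.0 for DCKO, so in this unit the groups overlapped and the Control mean was the higher. Junb had 20.2 and 21.5 counts per TPM in Control and 46.5 and 26.2 in DCKO. The ratio of DCKO to Control in that quantity was 1.75, against 0.709 to 1.16 for the other 9 genes. Junb overlaps Prdx2 on the other strand by 351 bases, and Prdx2 held 28203, 29640, 21010 and 14320 counts. The part of that overlap in the disagreement was not tested.

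Outside these families, Atf3 and Egr1 rose. Atf3 (ENSMUSG00000026628, chr1:191170296-191218039, minus strand) encodes a stress-induced bZIP protein that pairs with JUN proteins and often represses transcription. Its Control libraries held 3.11 and 2.83 CPM and its DCKO libraries 19.7 and 67.3, with DCKO 2 at 3.42 times DCKO 1. Means were 2.97 ± 0.204 and 43.5 ± 33.6 CPM (SD, n = 2), a ratio of 14.6. The log2 change was 3.87, with an SE of 0.62 and an adjusted p of 0.0187.

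Egr1 (ENSMUSG00000038418, chr18:34859823-34864984, plus strand) encodes a zinc finger factor that SRF and ELK proteins induce. Its Control libraries held 2.38 and 1.64 CPM and its DCKO libraries 11.7 and 26.4, again highest in DCKO 2. Means were 2.01 ± 0.523 and 19.0 ± 10.4 CPM (SD, n = 2), a ratio of 9.47, and the log2 change was 3.24 (SE 0.48, adjusted p 0.0165). Ier2 (ENSMUSG00000053560, chr8:84661331-84662852, minus strand), an immediate early gene for a small nuclear protein, was lower in both DCKO libraries (23.6 and 25.3 CPM) than in Control (35.6 and 29.1 CPM). Its log2 change of -0.40 (SE 0.18) had an adjusted p of 0.171, and of the alternatives it passed only with library totals, at -0.75 (adjusted p 0.0352).

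**Figure D2:**
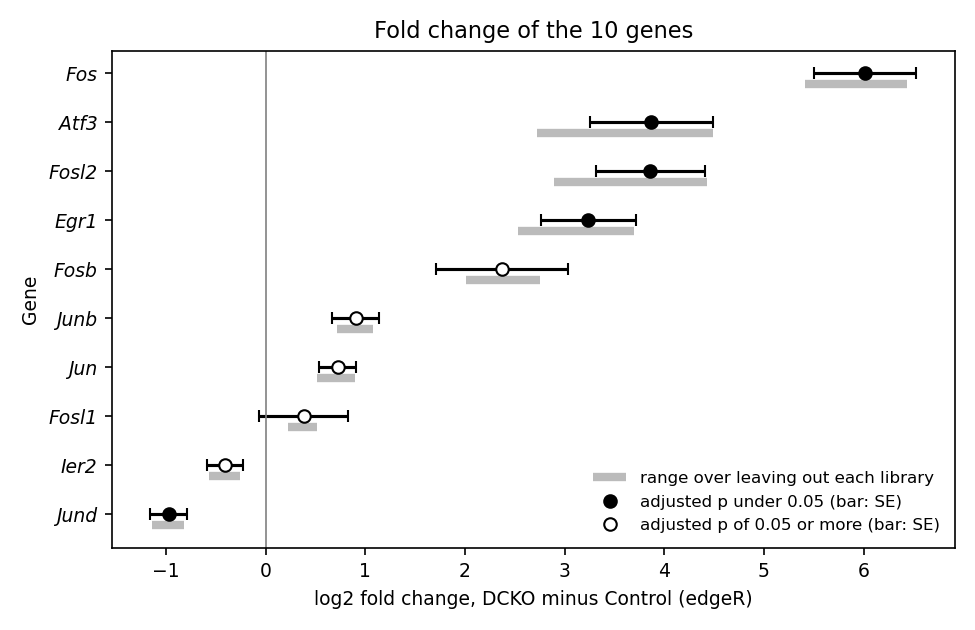
Log2 fold change of each gene, DCKO minus Control, from edgeR, with bars for the SE, filled points for an adjusted p under 0.05 and grey bars for the range when each library in turn is left out. Fos is highest at 6.02, Jund is lowest at -0.97, and no grey bar crosses 0.

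Leaving out either Control library ended most of the calls. Without Control 1 or without Control 2, when the lone Control is assumed to vary like the DCKO pair, Fos was the only one of the 10 genes called higher (adjusted p 0.0344 and 0.0401) and 0 were called lower. The adjusted p-values without Control 1 and without Control 2 were 0.0677 and 0.0784 for Fosl2, and 0.0833 and 0.0926 for Atf3. For Egr1 they were 0.0639 and 0.0859, and for Jund 0.0915 and 0.169. Without DCKO 1, Jun and Junb passed too (adjusted p 0.0160 and 0.0261). The log2 change with any single library left out ran from 5.42 to 6.43 for Fos, 2.89 to 4.43 for Fosl2, 2.72 to 4.49 for Atf3, 2.53 to 3.70 for Egr1 and -1.14 to -0.82 for Jund. The lowest of these for Fos, Fosl2, Atf3 and Egr1 came without DCKO 2 and the highest without DCKO 1.

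Levels of different genes were compared in TPM. In Control, JUN family genes and Ier2 stood far above the FOS family. Jund led with 78.9 ± 1.98 TPM (SD, n = 2), followed by Ier2 (36.5 ± 10.2), Jun (30.5 ± 4.13) and Junb (22.9 ± 8.04). Then came Atf3 (2.55 ± 0.541), Fosl2 (1.00 ± 0.227), Egr1 (0.773 ± 0.303), Fosl1 (0.710 ± 0.197), Fos (0.247 ± 0.0890) and Fosb (0.0445 ± 0.00500). Libraries overlapped between Ier2 and Jun, Jun and Junb, Fosl2 and Egr1, and Egr1 and Fosl1, and not between the other neighbours in this order. In DCKO the order was Jun (42.9 ± 13.0 TPM), Jund (34.5 ± 6.27), Atf3 (33.1 ± 27.8), Ier2 (23.1 ± 3.86), Junb (18.0 ± 8.48), Fosl2 (11.5 ± 8.59), Fos (9.41 ± 5.06) and Egr1 (8.16 ± 6.69). Each of these overlapped the next, while Fosl1 (0.776 ± 0.0931) and Fosb (0.203 ± 0.0379) stood apart below them.

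The make-up of the FOS and JUN transcripts, in TPM over the 7 genes, differed between the groups. FOS family genes were 1.67 and 1.30 percent of the sum in the Control libraries and 13.9 and 21.6 percent in the DCKO libraries. Jund was 54.6 and 63.4 percent in Control and 34.2 and 26.5 percent in DCKO. Jun went from 23.5 and 21.7 percent to 38.3 and 35.5 percent and was the largest share in both DCKO libraries. The sum itself overlapped, at 142 and 127 TPM for Control against 87.9 and 147 for DCKO. For each TPM of FOS family RNA there were 59.0 and 76.0 TPM of JUN family RNA in Control and 6.18 and 3.64 in DCKO, so JUN family transcripts were in excess in all 4 libraries. These are shares of RNA and do not measure protein or dimers. They rest on TPM of Jund, whose reads cannot be told apart from those of Gm11175. They also rest on TPM of Junb, which pointed the opposite way from its counts.

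**Figure D3:**
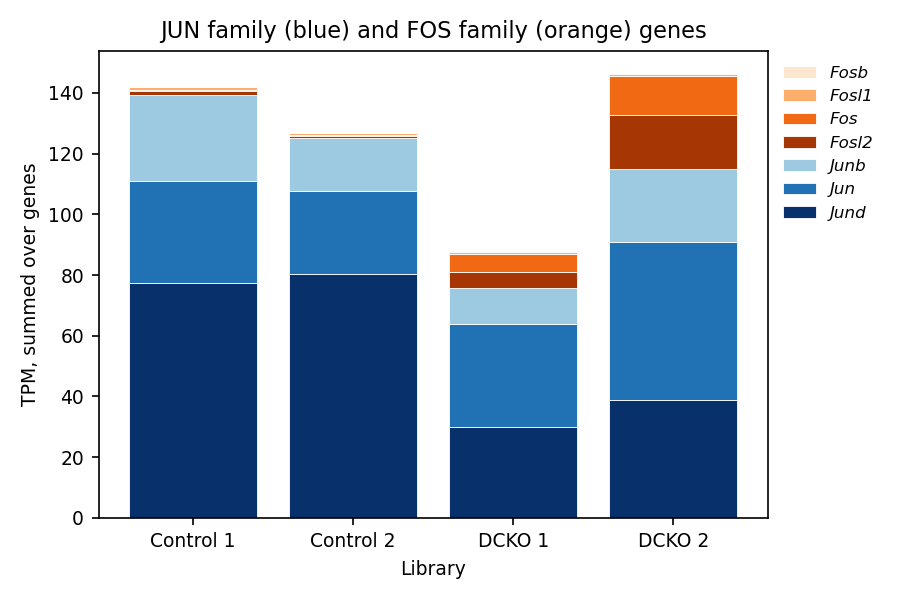
TPM of JUN family genes (blue) and FOS family genes (orange) in each library, stacked from 0. Jund is the largest block in both Control libraries, Jun is the largest in both DCKO libraries, and the Fos and Fosl2 blocks are larger in DCKO.

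The DCKO embryos differed from each other in the same 4 genes that rose. DCKO 2 was above DCKO 1 by a log2 difference of 1.77 for Atf3, 1.54 for Fosl2, 1.17 for Egr1 and 1.02 for Fos. A larger gap between the DCKO libraries was found in 5.95% of tested genes for Atf3 and in 16.3% for Fos. For Fosl1, Ier2, Jund, Junb and Jun the difference was between 0.03 and 0.39, and for Fosb, with few counts, it was -0.51. The higher level in DCKO 2 was not particular to these genes. Over the other immediate early genes read further on, the median difference was 0.57, against -0.0007 over all tested genes. Genes of that list went both ways, from Gadd45b at 1.81, above Atf3, to Zfp36 at -0.56, both chosen after their values were seen.

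Heat shock genes also respond fast to stress, so inducible chaperones were read beside these genes. Hspa1a and Hspa1b, near-identical HSP70 genes between which reads may be split, had 19, 9, 3794 and 1122 and 59, 43, 4683 and 1489 counts in the order Control 1, Control 2, DCKO 1, DCKO 2. Their log2 changes were 7.98 (SE 0.76, adjusted p 0.00788) and 6.45 (SE 0.62, adjusted p 0.00791). The small heat shock protein gene Hspb1 rose by 3.91 (SE 0.57, adjusted p 0.0163), and had adjusted p-values of 0.0814 and 0.0811 without Control 1 and Control 2. Of 10 chaperones 3 were higher and 0 lower, against 8.93% and 8.11% of all tested genes, with a median of 0.07. Dnajb1, Hspa8 and Bag3, chosen after their values were seen, were at 0.08, -0.28 and 0.67. The order within DCKO was the reverse of that of Fos: DCKO 2 minus DCKO 1 was -1.64 for Hspa1a, -1.54 for Hspa1b and -1.47 for Hspb1. The part of a stress response or of tissue handling in the rise of Fos, Fosl2, Atf3 and Egr1 was not tested.

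**Figure D4:**
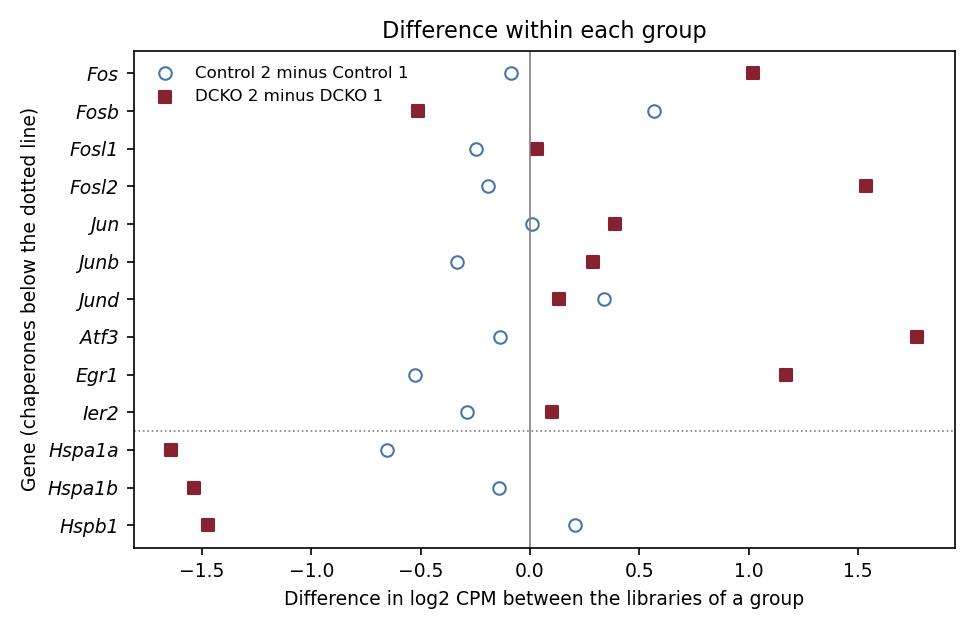
Difference in log2 CPM between the libraries of each group, for the 10 genes and, below the dotted line, 3 chaperones. In DCKO, Atf3, Fosl2, Egr1 and Fos are higher in library 2 (1.02 to 1.77), whereas Hspa1a, Hspa1b and Hspb1 are higher in library 1.

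Other immediate early genes, 34 tested of 37 listed, went both ways: 11 rose and 4 fell, against 8.93% and 8.11% of all tested genes. The median log2 change of the list was 0.50. Plk2, a polo-like kinase gene, rose from 18.4 ± 0.619 to 86.2 ± 3.92 CPM (SD, n = 2), a log2 change of 2.23 (SE 0.16). Ppp1r15a, which encodes the GADD34 phosphatase subunit of the stress response, rose by 2.71 (SE 0.25), and Ccn1, a matricellular protein gene and common YAP target, by 3.45 (SE 0.33). Btg2, an antiproliferative gene, fell from 68.3 ± 9.31 to 13.8 ± 1.95 CPM (log2 -2.31, SE 0.20). These 4 passed without any single library. The list ran from -2.49 for Trib1 (SE 0.29) to 4.95 for Ier3 (SE 0.50), both called. Egr3, Dusp1, Dusp6 and Klf10 were not called, at 0.52, 0.44, 0.46 and -0.11. Trib1, Ier3 and these were chosen after their values were seen. The numbers higher and lower were 4 and 1 without Control 1, 5 and 1 without Control 2, and 17 and 5 without DCKO 1. With the replicate number as a block, 2 were lower.

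Among other bZIP factors, 5 of 21 tested rose and 0 fell, against 8.93% and 8.11% of all tested genes, with a median of 0.69. Ddit3, the CHOP gene of the unfolded protein response, rose from 3.53 ± 0.655 to 20.6 ± 3.24 CPM (log2 2.55, SE 0.26). Atf4, the central factor of the integrated stress response, rose from 57.8 ± 7.83 to 222 ± 62.4 CPM (log2 1.94, SE 0.25). The small MAF gene Maff rose by 2.41 (SE 0.45) and Nfe2l2, which encodes the oxidative stress factor NRF2, by 0.87 (SE 0.16). Without Control 1 the list had 1 higher (Maff, adjusted p 0.0483), without Control 2 it had 0 and without DCKO 1 it had 9.

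Of the kinases and SRF or ELK factors that act upstream, 2 of 23 rose and 2 fell, with a median of 0.26. Shares of this size are close to those over all tested genes, 8.93% higher and 8.11% lower, so the count sets the list apart in neither direction. Mapk3, which encodes ERK1, and Map2k1, which encodes its kinase MEK1, rose by 0.91 (SE 0.19) and 0.90 (SE 0.21). Map2k2, which encodes MEK2, and the SRF coactivator gene Mrtfa fell, with log2 changes of -0.94 (SE 0.17) and -1.08 (SE 0.24). None of these 4 passed without Control 1, without Control 2 or with the replicate number as a block, and 6 of the list were higher without DCKO 1. RNA levels of kinases do not measure their activity.

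Of 10 negative regulators, 2 rose and 1 fell, with a median of 0.16. Over all tested genes 8.93% were called higher and 8.11% lower, so counts this small do not set the list apart. Nab2 and Nab1, genes for corepressors that bind EGR proteins, rose by 2.49 (SE 0.23) and 1.26 (SE 0.21). Nab2 went from 4.40 ± 0.735 to 24.8 ± 1.17 CPM (SD, n = 2). Fbxw7, which encodes a ubiquitin ligase subunit that targets JUN, fell, with a log2 change of -1.31 (SE 0.27). Without Control 1 and without Control 2, Nab2 was called (adjusted p 0.0478 and 0.0446), and Nab1 and Fbxw7 were not.

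Genes often named as AP-1 targets could be tested in 13 of 21 cases. Since a scarce gene can pass the filter through its higher group alone, their count and median are a description. Of the 13, 7 were higher and 1 was lower, against 8.93% and 8.11% of all tested genes, and the median was 2.84. Hmox1, which encodes a heme-degrading stress enzyme, rose from 11.8 ± 0.126 to 57.1 ± 7.97 CPM (log2 2.27, SE 0.18). Cd44, a hyaluronan receptor gene, rose from 6.48 ± 0.439 to 28.1 ± 6.47 CPM (log2 2.12, SE 0.24). Plau, which encodes the secreted protease urokinase, rose by 1.89 (SE 0.25). The gene lower in DCKO was Ccnd1, for cyclin D1, at -1.35 (SE 0.28), named after its value was seen. The metalloproteinase genes Mmp3, Mmp10 and Mmp13 had 0 counts in all libraries, where a count of 0 allows 3 counts, or 0.0479 to 0.0812 CPM. Without Control 1 and without Control 2, 1 and 2 genes were higher and 0 lower, and Hmox1 passed in both.

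**Figure D5:**
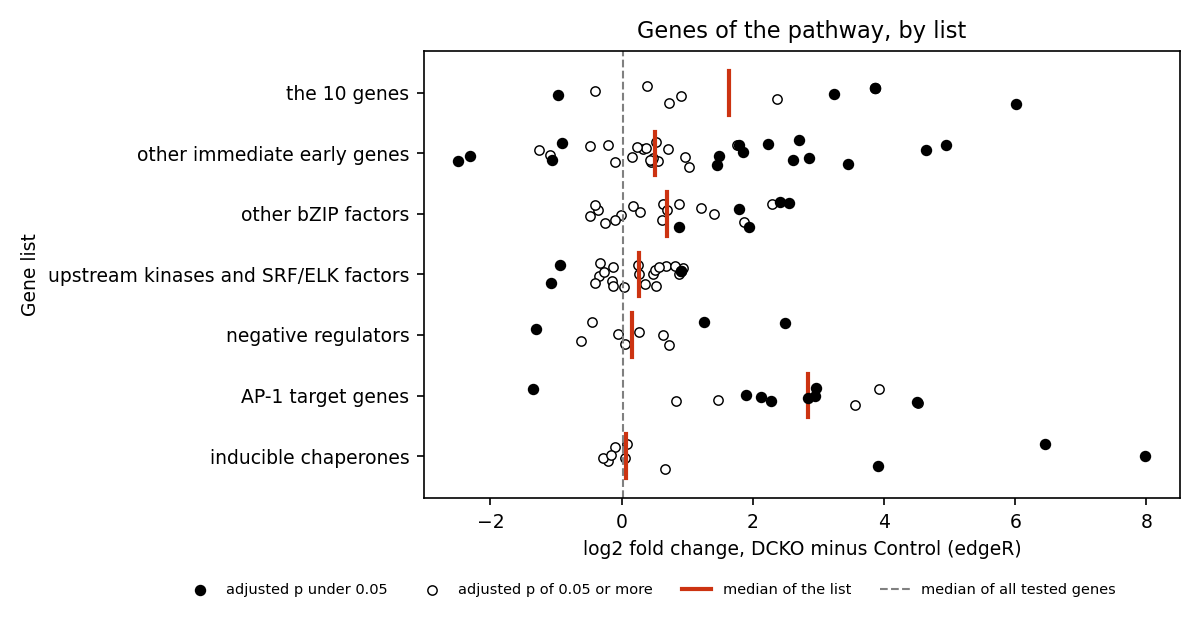
Log2 fold change, DCKO minus Control, of each tested gene in 7 lists, with filled points for an adjusted p under 0.05, a red bar at the median of each list and a dashed line at the median of all tested genes. AP-1 target genes have the highest median (2.84), over the 13 of 21 that could be tested, some of them with few Control counts. The chaperones centre near the dashed line apart from Hspa1a, Hspa1b and Hspb1.

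Markers of several cell types differed between the same libraries. Over all tested genes, 8.93% were called higher in DCKO and 8.11% lower. Summed over 12 surface ectoderm markers the level was 16.1 to 18.5 CPM in Control and 377 to 494 in DCKO, with 11 higher. Endothelial markers summed to 157 to 164 CPM in Control libraries and to 413 to 696 in DCKO ones, with 6 of 9 higher. The 8 mural markers summed to 48.6 to 52.5 CPM in Control libraries and to 464 to 669.8 in DCKO ones. Of the 7 that were tested, all but Myh11, 5 were higher. Cranial mesenchyme markers summed to 319 to 380.1 CPM in Control libraries and to 1048 to 2282 in DCKO ones, with 8 of 11 higher. Of 9 macrophage markers 0 were called, at 24.4 to 30.6 CPM in Control and 18.8 to 74.8 in DCKO. Neural progenitor markers were at 1713 to 1963 CPM in Control libraries and at 389 to 502 in DCKO ones, with 6 of 7 lower, and these, which mark the labelled tissue, were present in every library. Neuronal markers were at 927 to 1189 CPM against 238 to 553 (3 of 6 lower), and erythroid markers at 2553 to 3786 CPM against 657 to 900.2 (7 of 11 lower). No marker was at 0 in both libraries of a group. The median log2 difference of DCKO 2 minus DCKO 1 was 0.21 over surface ectoderm markers, -0.67 over endothelial, -1.02 over mural, -0.42 over mesenchyme and -2.17 over macrophage markers, and 0.34 over the 10 genes. Of the mural markers, Acta2 (1.00) and Tagln (1.27) were higher in DCKO 2 and the others in DCKO 1. The part of cell composition in the changes of the 10 genes was not tested.

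The genes whose profile over the 4 libraries lay closest to that of Fos and of Jun were taken by Euclidean distance between centred log2 CPM, among 9409 well-expressed genes. Closest to Fos were Acta2 (distance 0.440), the smooth muscle actin gene and one of the mural markers, Slc2a3 (0.771), for the glucose transporter GLUT3, and Adm (0.787), for adrenomedullin. Acta2 stood at 6.90 and 4.74 CPM in Control embryos against 167 and 334 in DCKO embryos, so it shared a large difference and the higher level of DCKO 2. In the edgeR fit its log2 change was 5.42, against 6.02 for Fos and 6.21 for Adm. The distances were taken on log2 CPM with a prior count of 2, which matters for the 12 and 9 Control counts of Fos. The DCKO libraries were closer to each other for Slc2a3 (1549 and 1786 CPM) and Adm (70.3 and 79.4 CPM). Closest to Jun were Limk2 (0.0361), for a LIM kinase, Mbd5 (0.0386) and Zfp36l2 (0.0577), for an RNA-binding protein. Over only 4 libraries such likeness is a description.

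The authors' deposited table lists 8 of the 10 genes, not Fosb or Fosl1. There 7 had a false discovery rate under 0.05, where 28.8% of all listed genes did. In the authors' deposited table Jun is at 0.78 (false discovery rate 0.0183) and Junb at 0.96 (0.0281), both called there and not in the fit above. The same authors' deposited table gives log2 changes of 6.07 for Fos, 3.93 for Atf3, 3.92 for Fosl2, 3.30 for Egr1, -0.92 for Jund and -0.35 for Ier2, whose false discovery rate is 0.365.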

How the data were processed

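RNA of 4 cranial neural tubes was sequenced. The authors deposited whole-number counts per Ensembl gene, TPM per gene, and a comparison table with log2 fold changes, p-values and false discovery rates. Tools named in the submitters' processing notes, with no role or order, are TopHat2 (2.1.1), StringTie, edgeR (3.16.5), limma (3.30.13) and R (3.3.2), with builds mm10 and GRCm38. The counter and its strand setting are not given in the sources used here. Symbols and positions are from GENCODE M21.

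From the counts, edgeR 4.0.16 (R 4.3.3) kept 19207 genes by filterByExpr (count 10, total 15). TMM factors were 1.14, 1.12, 0.888 and 0.885 for Control 1, Control 2, DCKO 1 and DCKO 2. The quasi-likelihood test had group alone as covariate and 2 residual degrees of freedom, was two-sided, and was adjusted by Benjamini-Hochberg over all tested genes. An SE is the log2 change divided by the square root of F. P-values rest on the spread between these embryos, with that of each gene moderated towards a trend over all tested genes. They are therefore not a measure of 1 gene's own spread over 4 embryos. The floor of 3 counts covers counting error only. Alternatives were other scalings, no filter, DESeq2 1.42.0, limma 3.58.1 on counts (voom) and on log2 TPM with pseudocounts of 1 and 0.1, a replicate term, no ribosomal RNA cluster, and each library left out. Of 2 IDs named Ddit3, the one with more counts was used.

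Members and lists were chosen with earlier results of these data known. Genes named are the 10, Lats1 and Lats2, up to 4 called genes of each pathway list by p-value, and the 3 genes closest in profile to Fos and to Jun among genes whose mean log2 CPM was 3 or more, predicted models left out. Xist, overlapping genes and others were named beyond that rule. A gene that the rule names is not reported here.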

Additional observations from a re-analysis of the deposited data

How the results depend on the processing

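Fos kept its direction in all 15 alternatives and passed in 14; Fosl2, Atf3, Egr1 and Jund each kept theirs in 15 and passed in 12. Junb turned negative in limma on TPM, at -0.37 (pseudocount 1), -0.39 (pseudocount 0.1) and -0.37 (pseudocount 1, no filter), and the cause was not tested. Of the 10 genes, 1 to 6 were called higher and 0 to 1 lower with single libraries left out, 2 were lower with library totals, and 0 were higher and 0 lower on unfiltered TPM, where limma called 0 genes higher and 0 lower in all. Over all genes, 1716 were higher and 1558 lower, against 155 to 2619 and 72 to 2565 with single libraries left out, both lowest without Control 2 and highest without DCKO 2, and 245 and 138 without Control 1. Those lower numbered 3744 with library totals and 2672 in DESeq2, and those higher 1007 and 958 on filtered TPM with pseudocounts of 1 and 0.1. The share of calls that were higher was 52.4%, but 24.6% with library totals, 37.2% and 37.4% on filtered TPM, 64.0% without Control 1 and 68.3% without Control 2. In DESeq2, 9 other bZIP factors and 4 upstream genes were higher. With library totals, 0 upstream genes were higher, and 1 bZIP factor, 3 negative regulators and 1 chaperone were lower. On filtered TPM with either pseudocount, 1 upstream gene and 1 negative regulator were higher and 1 upstream gene was lower, and without DCKO 2, 2 negative regulators were lower.

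With the replicate block, a term for the replicate number of the labels, 1002 genes were higher and 776 lower, with 4 of the 10 genes higher and 1 lower, 1 negative regulator higher and 0 lower. The libraries share only a number: deviations of same-numbered libraries correlated at -0.04 over all tested genes. Depth limits Fosb most, with 5, 7, 27 and 17 counts.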

Other observations

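Of the genes listed as AP-1 targets, Hbegf, F3 and Lif were high mainly in DCKO 2. Counts in the order Control 1, Control 2, DCKO 1, DCKO 2 were 165, 106, 254 and 1821 for Hbegf, which encodes an EGF receptor ligand, and its log2 change was 3.55 (SE 0.95, adjusted p 0.0571 in edgeR). For F3, the tissue factor gene, they were 82, 79, 291 and 2135, with a log2 change of 4.50 (SE 1.00, adjusted p 0.0380 in edgeR). The cytokine gene Lif had 6, 0, 18 and 74 counts. DCKO 2 exceeded DCKO 1 by a log2 difference of 2.95 for Hbegf, 2.98 for F3 and 2.06 for Lif, each larger than that of Atf3 (1.77). The list as a whole did not share this: its median difference was -0.29, and Tnc (-1.29), Timp1 (-1.08), Plaur (-1.08), Ccnd1 (-0.80), Mmp9 (-0.53), Cd44 (-0.47) and Hmox1 (-0.29) were higher in DCKO 1.

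Among other immediate early genes, in the same library order, Npas4 had 0, 0, 12 and 0 counts, Egr4 had 0, 0, 0 and 5, Egr2 had 0, 4, 8 and 10 and Arc had 118, 83, 48 and 168, and the groups overlapped for Arc. All genes of these paragraphs were chosen after their values were seen.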
